A study of Mus musculus with 15 samples.

Results

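Gene expression was compared between LSK cells of ruxolitinib-treated mutant mice and WT LSK cells, in 3 libraries each, over the 17143 genes that passed a low-count filter and lay outside chromosomes X and Y. These were 6 of the 15 libraries of the series and 17143 of the 17834 genes that passed the filter; 608 of the others lie on X or Y and 83 could not be placed on a chromosome. LSK cells are the lineage-negative, Sca1-positive, c-Kit-positive fraction of mouse bone marrow, which holds the stem cells and the multipotent progenitors. The mutant cells carried Idh2 R140Q and Jak2 V617F, conditional alleles that an inducible Mx1-Cre switches on after polyI:polyC injections, on a background given as C57BL/6 in the labels and C57BL/6J in the study's methods. They were CD45.2 cells transplanted with CD45.1 WT competitor cells into irradiated CD45.1 hosts, and they were sorted as CD45.2+ LSK cells, so each mouse was a mixed chimera of which only the donor cells were sequenced. Ruxolitinib, an inhibitor of JAK1 and JAK2, was gavaged 2 times a day at 60 mg/kg for 21 to 28 days, with the last dose about 1.5 hours before sacrifice. The WT libraries were CD45.2+ LSK cells as well. Their labels name no drug or vehicle, and the sources used here do not say whether the WT mice were transplanted, were given polyI:polyC or were gavaged. The other mutant groups, with 3 libraries each, received vehicle, AG221 (an inhibitor of mutant IDH2, 40 mg/kg) or both drugs at these doses, here called combined. The legend for the RNA-seq of treated recipients gives a number per group that equals the number of libraries, but no label ties a library to a single mouse. The p-values rest on the spread between libraries within groups, estimated over all 15 libraries. The methods state adult mice of both sexes for the whole study, without the age or sex behind each library. Ruxolitinib against WT contrasts genotype and drug together, with any difference in transplantation, polyI:polyC or gavage, and these cannot be told apart.

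JAK2 is the kinase that passes signals from the erythropoietin receptor and several other cytokine receptors to STAT transcription factors, and V617F makes it active without cytokine. Interferon receptors also signal through JAK kinases, to a complex of STAT factors and IRF9 that switches on interferon-stimulated genes. R140Q makes the mitochondrial enzyme IDH2 produce 2-hydroxyglutarate, which inhibits DNA and histone demethylases. Immediate early genes such as Fos and Egr1 are transcribed within minutes of growth factor, cytokine or stress signals.

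Ruxolitinib-treated mutant LSK cells had higher early response, inflammatory, oxidative phosphorylation, glycolysis, cell cycle and myeloid and erythroid genes than WT LSK cells. Interferon-stimulated and plasma cell genes were lower, and stem cell identity genes were called about as often as all genes. In a quasi-likelihood test over all 15 libraries (edgeR, Benjamini-Hochberg adjusted p under 0.05), 5498 of 17143 genes were called, 32.1% of those tested. Of these, 2740 were called higher (16% of genes tested) and 2758 lower (16.1%). The higher calls were mostly small, with a median log2 fold change of 0.70, and the lower calls larger, with a median of -1.60. At least 2-fold changes were seen in 622 higher and 2189 lower calls, and at least 8-fold changes in 54 higher and 552 lower calls. The median log2 fold change over all genes tested was -0.14.

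The direction of a call followed the level of the gene. Among 2619 genes with a mean of at least 100 CPM (counts scaled to the library total) over the 15 libraries, 46.8% were called higher and 2.98% lower. Among 4251 genes under 1 CPM, 1.79% were called higher and 21.6% lower. The WT libraries held counts for more genes, 29782 to 34487, than the ruxolitinib libraries, 21923 to 25127, at total counts of 24310100 to 26408209 and 22004150 to 27743702. The split between higher and lower also moved with the scaling: upper quartile normalization gave 1678 higher and 3177 lower calls, and offsets for GC content gave 3757 and 2329 and a median over all genes of 0.03, where TMM gave -0.14.

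**Figure D1:**
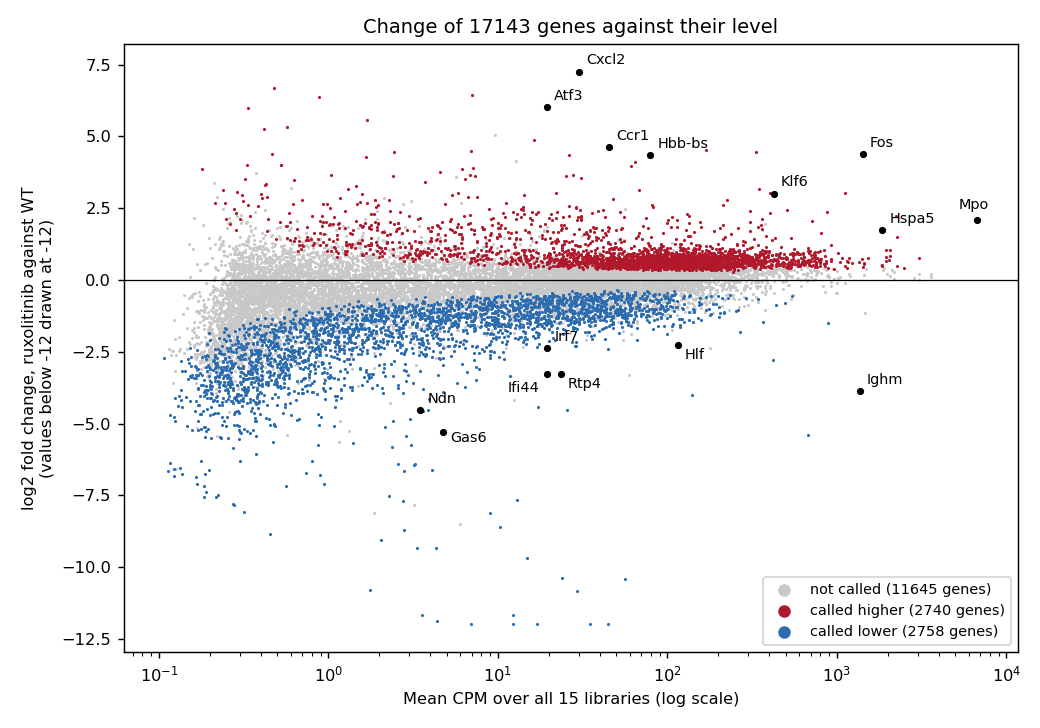
Log2 fold change between ruxolitinib and WT libraries against the mean CPM over 15 libraries (log scale), 1 point a gene, with called genes in colour and selected genes named. Higher calls crowd at high levels with small changes and lower calls at low levels with larger ones; 5 genes below the axis limit are drawn at the limit.

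Individual libraries carried weight. The ruxolitinib replicate A16 stood apart from A14 and A17: its 15 erythroid markers lay 3.01 log2 units above the WT mean on average, against 1.37 in A14 and 1.16 in A17, its 38 early response genes 0.93 above WT against 2.20 and 1.995, and the tenth of genes with the highest GC content deviated by -0.36 from the mean of all libraries, against 0.21 and 0.12. Without A16, 2522 genes were called, without A17 3371, without the WT replicate B28 3476 and without the WT replicate B30 1789. WT B30 had counts for the most genes and the most plasma cell RNA of the 6 libraries. Of the 2758 lower calls, 2018 had their highest WT value in B30. The same share over all genes tested was not counted, so this count has no background to be read against. Replicate letters also divided the groups: vehicle, AG221 and ruxolitinib libraries are numbered with A, and combined and WT libraries with B. The labels do not say what the letters mark, so ruxolitinib against WT crosses them and combined against WT does not, and values of the vehicle and combined groups are therefore set beside those of ruxolitinib. All of these comparisons share the same WT libraries. Genes of chromosomes X and Y were left out because the groups differ in them: Ddx3y, a Y-linked helicase, averaged 163 CPM in ruxolitinib libraries and 0.0335 in WT, so donor sex and group cannot be told apart.

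The genes of both positive sort markers were read in both groups, but the series holds no unsorted library to set them against. Kit, which encodes c-Kit, was measured at 1117, 1405 and 1305 CPM in ruxolitinib libraries A14, A16 and A17 and at 1548, 1276 and 1248 in WT libraries B28, B30 and B31. Ly6a, which encodes Sca1, was measured at 46.9, 44.7 and 42.9 CPM and at 59.8, 72.3 and 80.8. Neither was called, with 95% intervals of the log2 fold change of -0.46 to 0.29 for Kit and -1.82 to 0.50 for Ly6a. The groups overlapped for Kit, whereas every WT library was above every ruxolitinib library for Ly6a.

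Of the mutated genes, Jak2 was called lower and Idh2 was not called. Jak2 was measured at 22.5, 21.1 and 20.8 CPM in ruxolitinib libraries and at 32.2, 38.3 and 27.0 in WT libraries, a log2 fold change of -0.60 ± 0.16 (SE; adjusted p = 0.0168, edgeR). This call was lost without A17, without B30 and with GC offsets. Mean Jak2 was 22.0 CPM in vehicle and 46.8 in combined libraries. Idh2 was measured at 479, 124 and 424 CPM against 383, 375 and 439, with a log2 fold change of -0.22 ± 0.59 (adjusted p = 0.789, edgeR), and A16 held the low value. Counts per gene do not show which allele was transcribed. Of 17 JAK kinases, STAT factors and IDH enzymes, 3 were called higher (17.6%, near the 16% over all genes) and 1 lower (5.88%). Fits that left out 1 library called 1 to 2 higher (1 without A16 or B30) and 0 to 1 lower. The cytosolic NADP enzyme Idh1 rose by a log2 fold change of 1.03 ± 0.21. Idh3a, a subunit of the NAD enzyme of the citric acid cycle, rose by 0.92 ± 0.23, a call lost without A16 or B30.

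The gene groups are plotted together below by the share of members called and by their median change. Each count of calls is to be read against the shares over all genes tested, 16% higher and 16.1% lower.

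**Figure D2:**
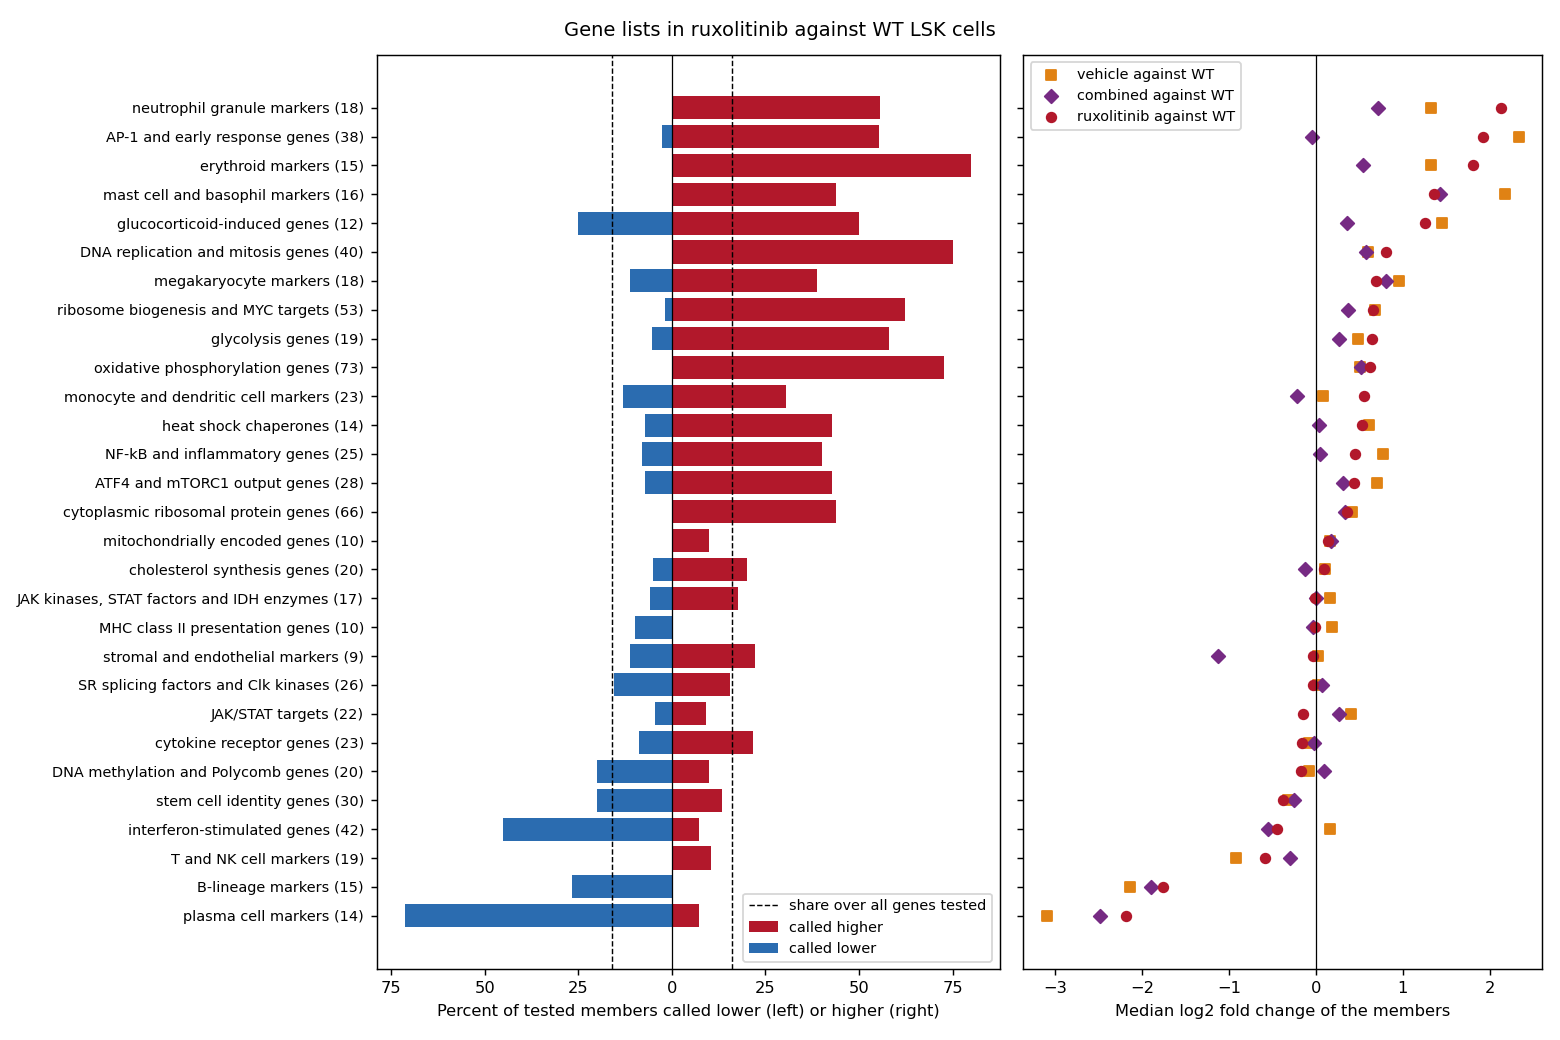
Left, percent of tested members of each list called lower or higher in ruxolitinib against WT, with dashed lines at the shares over all genes tested and the number of tested members in brackets; right, the median log2 fold change of the members in ruxolitinib, vehicle and combined libraries, each against WT. Neutrophil, early response and erythroid lists have the highest medians and the plasma cell list the lowest, and the combined group is near 0 for the early response list.

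Early response genes were higher than in WT. Of 38 AP-1 and early response genes, 21 were called higher and 1 lower, and their median log2 fold change was 1.93. Klf6 (chr13:5861482-5870394), a zinc finger transcription factor of early response, was measured at 665, 519 and 547 CPM in ruxolitinib libraries and at 78.3, 68.5 and 67.6 in WT libraries. Its log2 fold change of 3.01 ± 0.18 (SE, n = 3 and 3 libraries; adjusted p = 3.5e-06, edgeR) had the smallest adjusted p among the named genes. Fos (chr12:85473890-85477273), which pairs with Jun proteins in the AP-1 dimer, was measured at 2493, 1592 and 2491 CPM against 126, 110 and 79.6. Every ruxolitinib library was above every WT library for both genes. The same held for 21 of the 38 genes, and 2 had every ruxolitinib library below every WT library. Over all genes tested, the groups did not overlap for 58.0% of genes, with ruxolitinib above WT for 25.4% and below for 32.7%.

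Atf3, a stress-induced member of the ATF and CREB family, was measured at 28.4, 14.9 and 22.6 CPM against 0.362, 0.403 and 0.234, a log2 fold change of 6.02 ± 0.37 (adjusted p = 3.81e-06, edgeR). Egr1, a serum-induced zinc finger factor, was measured at 797, 174 and 710 CPM against 34.0, 21.4 and 20.7, with A16 below the other ruxolitinib libraries and still above WT. Nr4a1, an orphan nuclear receptor, was measured at 236, 184 and 290 CPM against 17.4, 6.32 and 7.16. The same order of groups held for feedback regulators that end such responses: Zfp36, which destabilises inflammatory mRNAs, rose by 3.02 ± 0.30, the antiproliferative Btg2 by 3.02 ± 0.28, Ier3 by 2.01 ± 0.15 and Ppp1r15a, a phosphatase subunit of the stress response, by 2.60 ± 0.31. Junb, an AP-1 subunit, was measured at 911, 188 and 635 CPM against 138, 139 and 122, and its call (2.12 ± 0.70, adjusted p = 0.042, edgeR) was lost in 5 of the 6 fits that left out 1 library. The member that fell was Zfp36l2, a relative of Zfp36, at 81.1, 32.2 and 70.5 CPM against 136, 222 and 126 (-1.40 ± 0.40), which lost its call without A16 or without B30.

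Other members of the list, among them a surface antigen and an enzyme, were higher as well. Cd69, an early activation antigen, was measured at 255, 156 and 194 CPM against 30.3, 27.1 and 29.3 (2.80 ± 0.25). Ptgs2, the inducible prostaglandin synthase, was measured at 24.6, 15.8 and 23.1 CPM against 0.651, 0.538 and 0.970 (4.87 ± 0.36). These genes had values near WT in the combined group. The median of the 38 genes was 2.34 in vehicle against WT, 1.18 in AG221 against WT and -0.05 in combined against WT, and mean Fos was 3166 CPM in vehicle, 1557 in AG221 and 77.5 in combined libraries. In ruxolitinib directly against combined, 16 of the 38 were called higher and 1 lower, where 12.6% of all genes tested were called (3.92% higher and 8.71% lower). The groups with high values are those numbered with A, so letter and condition cannot be told apart for this list.

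**Figure D3:**
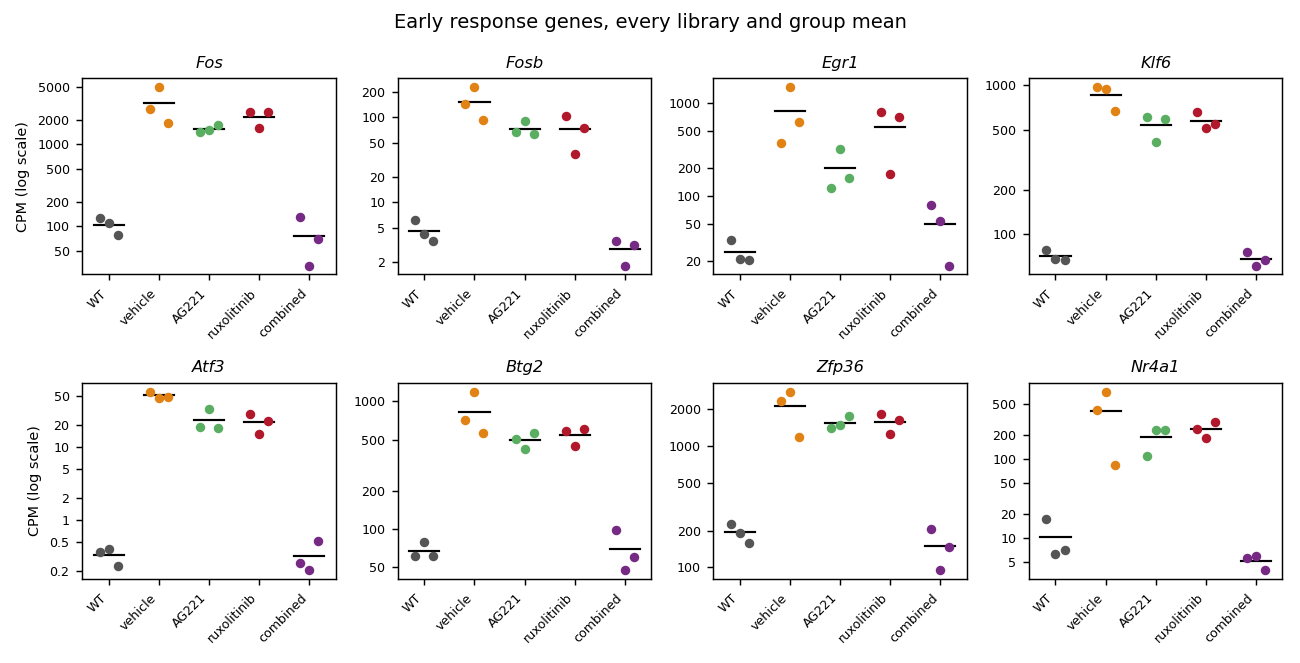
CPM (log scale) of 8 early response genes in every library of the 5 groups, with bars at the group means. Vehicle, AG221 and ruxolitinib libraries lie above WT in all 8 genes, and combined libraries lie near WT.

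Promoters of raised genes are shown because the AP-1 and ATF or CREB factors encoded by this list bind known sequences. RefSeq promoter windows (GRCm38.p6, 250 bases before to 50 after each start) were found for 11360 of the tested genes, with 14448 windows in all. The cyclic AMP response element TGACGTCA, on either strand, was present in 3.91% of windows of genes called higher, 2.05% of windows of genes called lower and 2.85% of all windows. The AP-1 site TGANTCA was present in 6.13%, 5.38% and 5.50%, and the E-box CACGTG in 11.2%, 7.47% and 9.23%. The STAT site TTCNNNGAA was present in 7.70%, 6.87% and 7.14%, and the CArG box, which serum response factor binds, in 1.45%, 1.24% and 1.32%. In the 38 windows of the early response list the AP-1 site was present in 5.26%, the CRE in 10.5%, the STAT site in 7.89%, the E-box in 23.7% and the CArG box in 15.8%, the last being 6 windows of 3 genes. A match is a description of letters and not a bound site. The 5 named genes called higher with the smallest adjusted p whose 250 bases before the start hold a CRE or AP-1 site are printed below, 5′ to 3′ on the strand of the gene, with the site in capitals. They are Hspa5 (chr2:34771840-34772089, plus strand), Btg2 (chr1:134079156-134079405, minus strand), Selp (chr1:164115014-164115263, plus strand), Ppp1r15a (chr7:45526269-45526518, minus strand) and Cycs (chr6:50566570-50566819, minus strand).
Hspa5: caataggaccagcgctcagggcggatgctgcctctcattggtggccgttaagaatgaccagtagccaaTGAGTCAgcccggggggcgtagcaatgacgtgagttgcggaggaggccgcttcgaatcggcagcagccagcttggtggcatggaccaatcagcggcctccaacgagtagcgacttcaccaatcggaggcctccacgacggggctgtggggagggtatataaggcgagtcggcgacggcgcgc
Btg2: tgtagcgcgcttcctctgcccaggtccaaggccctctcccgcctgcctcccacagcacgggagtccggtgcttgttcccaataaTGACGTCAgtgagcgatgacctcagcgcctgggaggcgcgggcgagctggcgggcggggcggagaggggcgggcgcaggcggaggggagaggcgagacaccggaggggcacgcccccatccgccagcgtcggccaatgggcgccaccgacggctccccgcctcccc
Selp: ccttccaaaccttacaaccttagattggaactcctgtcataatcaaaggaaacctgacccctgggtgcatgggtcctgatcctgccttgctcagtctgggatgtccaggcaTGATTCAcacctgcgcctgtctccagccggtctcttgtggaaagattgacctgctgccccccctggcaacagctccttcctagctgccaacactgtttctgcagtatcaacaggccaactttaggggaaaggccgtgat
Ppp1r15a: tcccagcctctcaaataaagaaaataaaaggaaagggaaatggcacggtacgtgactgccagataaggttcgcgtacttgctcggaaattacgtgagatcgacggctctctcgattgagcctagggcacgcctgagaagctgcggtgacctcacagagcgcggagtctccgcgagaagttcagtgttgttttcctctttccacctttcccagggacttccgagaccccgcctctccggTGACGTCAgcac
Cycs: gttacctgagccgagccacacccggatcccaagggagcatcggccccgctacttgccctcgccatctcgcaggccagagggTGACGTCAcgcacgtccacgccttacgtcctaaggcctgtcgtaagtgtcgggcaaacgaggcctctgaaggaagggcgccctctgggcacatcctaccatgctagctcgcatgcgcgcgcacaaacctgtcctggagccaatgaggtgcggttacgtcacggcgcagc
Hspa5 and Selp hold an AP-1 site 175 and 132 bases before the annotated start, and Btg2, Ppp1r15a and Cycs hold a CRE 158, 4 and 161 bases before it.

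Inflammatory genes rose in part. Of 25 NF-kB and inflammatory genes, 10 were called higher and 2 lower, with a median log2 fold change of 0.45, beside 0.77 in vehicle and 0.05 in combined against WT. Cxcl2, a neutrophil-attracting chemokine, was measured at 36.5, 11.7 and 22.4 CPM in ruxolitinib libraries and at 0.109, 0.303 and 0.0335 in WT libraries, a log2 fold change of 7.26 ± 0.72. Tnf was measured at 24.9, 19.3 and 26 CPM against 2.86, 2.32 and 3.45 (3.02 ± 0.34), and the cytokine Il1b at 6.58, 1.33 and 4.40 CPM against 0.362, 0.336 and 0.435 (3.42 ± 0.51). The chemokine Ccl2 rose by 3.85 ± 0.80. The 2 that fell were Bcl3, a nuclear IkB protein, at 2.11, 0.428 and 0.894 CPM against 3.55, 8.51 and 3.51 (a call lost without A16, A17 or B30), and the adhesion molecule Icam1, at 53.2, 50.3 and 46.4 CPM against 67.9, 75.1 and 70.2. The call of Icam1 was lost in all 6 fits that left out 1 library. Ccr1, a receptor for inflammatory chemokines, was measured at 62.3, 44.1 and 46.0 CPM against 1.52, 2.82 and 1.77 (4.63 ± 0.32, adjusted p = 1.27e-05, edgeR). Unlike the early response genes, mean Ccr1 was also high in combined libraries, at 37.3 CPM.

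Direct JAK and STAT target genes were mostly not called. Of 22 tested, 2 were called higher and 1 lower, and their median log2 fold change was -0.15, beside 0.40 in vehicle and 0.27 in combined against WT. The higher count was 6 with GC offsets, 4 with DESeq2, 3 without A16 and 1 without any other single library, and the lower count was 0 to 2 over the fits that left out 1 library. Osm, the cytokine oncostatin M and a target of STAT5, was measured at 113, 56.5 and 84.7 CPM in ruxolitinib libraries and 9.05, 9.78 and 10.3 in WT libraries (3.12 ± 0.27, adjusted p = 5.16e-05, edgeR). Socs1, the feedback inhibitor of JAK kinases, was measured at 0.752, 0.0856 and 0.410 CPM against 2.75, 7.26 and 2.17 (-3.29 ± 0.77, adjusted p = 0.0106, edgeR), a call that was lost without B30. Osm was lower in ruxolitinib than in vehicle libraries by 0.76, with an adjusted p of 0.91 (edgeR).

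Interferon-stimulated genes were lower than in WT. Of 42 tested, 19 were called lower and 3 higher, and the median log2 fold change was -0.45. The named gene called lower with the smallest adjusted p outside that list was also one that interferon induces. Rtp4 (chr16:23520291-23614222), a chaperone of membrane receptors, was measured at 4.56, 5.48 and 6.93 CPM in ruxolitinib libraries and at 44.8, 55.2 and 63.8 in WT libraries. Its log2 fold change was -3.27 ± 0.30 (adjusted p = 9.61e-05, edgeR). Irf7 (chr7:141262706-141266481), the transcription factor that amplifies type I interferon, was measured at 6.39, 7.88 and 6.63 CPM against 32.2, 36.4 and 38.7 (-2.36 ± 0.23, adjusted p = 9.61e-05, edgeR). In both genes the ruxolitinib libraries lay close together and far below WT.

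The lower genes covered several steps of the antiviral state. Ifi44 was measured at 5.07, 7.11 and 5.59 CPM against 56.2, 58.8 and 55.1 (-3.26 ± 0.38). The antiviral GTPase Mx1 was measured at 0.705, 0.514 and 0.522 CPM against 5.72, 5.72 and 6.32 (-3.35 ± 0.47). Ifit1, which binds viral RNA, was measured at 2.396, 1.46 and 2.64 CPM against 19.001, 18.9 and 15.6 (-3.04 ± 0.46). All 3 showed no overlap between groups. Among the others, Ifit3 fell by 2.63, Oasl2 by 1.45, Oas3 by 1.23, Irf9, the DNA-binding subunit of the interferon-activated STAT complex, by 1.09 and Isg15 by 1.001 on the log2 scale. The call of Isg15 was lost in all 6 fits that left out 1 library. The 3 members called higher were the chemokine Cxcl10, at 12.9, 9.76 and 8.12 CPM against 1.09, 2.86 and 3.11 (2.12 ± 0.52), the guanylate-binding protein Gbp3 (1.23 ± 0.34, a call lost without A14 or B30) and Ifit2 (0.56 ± 0.18), and the call of Ifit2 was lost in 5 of the 6 fits that left out 1 library. Leaving out 1 library at a time kept 13 to 15 of the 42 genes called lower.

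The mutant groups without ruxolitinib lay between these levels for Rtp4 and Irf7. Mean Rtp4 was 28.1 CPM in vehicle, 21.6 in AG221 and 7.56 in combined libraries, and mean Irf7 was 25.03, 20.9 and 9.30. The median of the 42 genes was 0.16 in vehicle, -0.00 in AG221 and -0.55 in combined against WT. The lowest means of these 2 genes were those of the ruxolitinib and combined groups, and the cause was not tested. Some genes were low in vehicle too: mean Ifi44 was 16.2 CPM in vehicle, 5.92 in ruxolitinib and 6.84 in combined libraries, beside 56.7 in WT. In ruxolitinib directly against vehicle, which are both numbered with A, 3 genes were called of 17143 (0.0175%), all lower (781 genes had an unadjusted p under 0.05, and DESeq2 called 50). These were Rtp4 (-2.31, adjusted p = 0.0259, edgeR), Irf7 (-1.84) and Tcrg-C1, a constant segment of the T cell receptor gamma locus, at 2.21, 2.91 and 1.19 CPM in ruxolitinib and 11.1, 27.9 and 17.9 in vehicle libraries. In that comparison 24 of the 42 interferon-stimulated genes had an unadjusted p under 0.05, and their median was -0.85, beside a median of 0.01 over all genes tested. None of the 3 calls remained when any 1 ruxolitinib library was left out. MHC class II presentation genes, which interferon-gamma induces through Ciita, were mostly not called: of 10 tested, 1 was called lower and the other 9 were not called, with a median of -0.01, and leaving out any single library but A17 gave 0 lower calls.

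**Figure D4:**
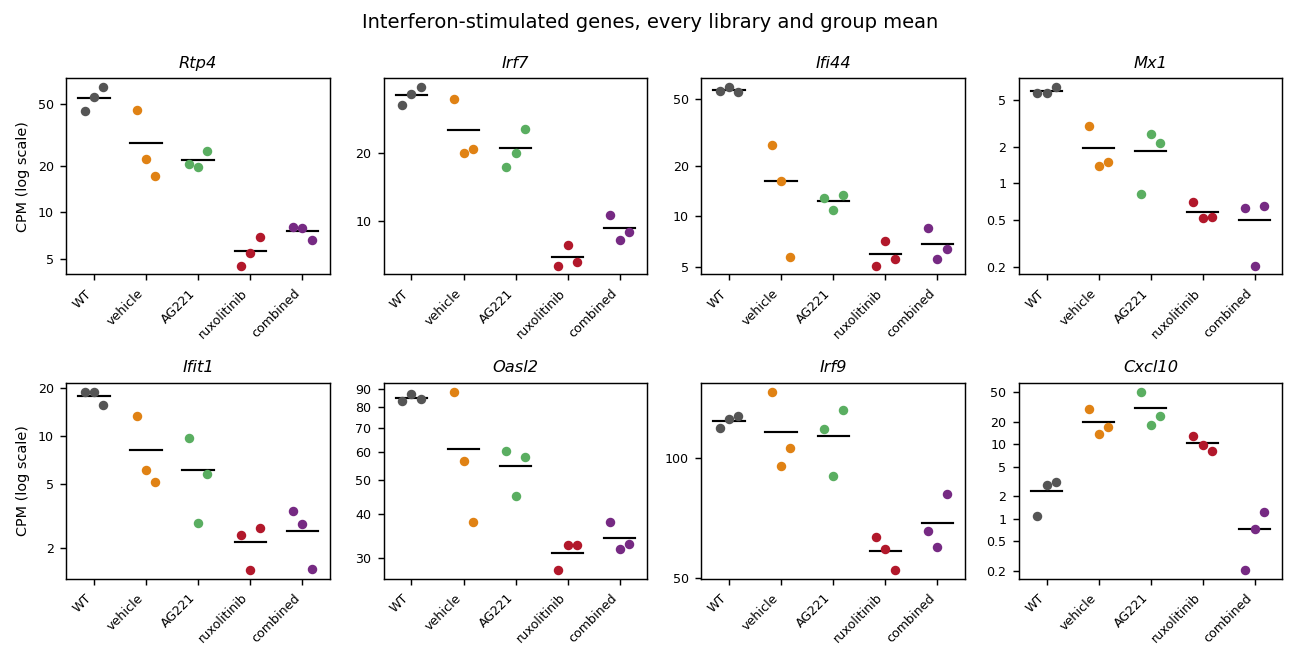
CPM (log scale) of 8 interferon-stimulated genes in every library of the 5 groups, with bars at the group means. Ruxolitinib and combined libraries have the lowest group means for 7 of the genes, while Cxcl10 is higher in vehicle, AG221 and ruxolitinib libraries than in WT.

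Interferon-stimulated response elements are shown for this group, searched as TTTC, any 2 bases and TTTC on either strand, a motif added after the values were seen. It was present in 8 of 14 promoter windows (57.1%) of the interferon-stimulated genes called lower, in 2 of 5 (40.0%) of those called higher, in 20 of 40 of the whole list and in 3.31% of all windows. Over all genes called higher it was present in 3.36% of windows, and over all genes called lower in 3.88%. The 3 with the smallest adjusted p that hold it in the 250 bases before the start are printed 5′ to 3′ with the element in capitals: Ifit3 (chr19:34583279-34583528, plus strand), Ifit1 (chr19:34640639-34640888, plus strand) and Oas3 (chr5:120777660-120777909, minus strand, where the capitals are the reverse complement).
Ifit3: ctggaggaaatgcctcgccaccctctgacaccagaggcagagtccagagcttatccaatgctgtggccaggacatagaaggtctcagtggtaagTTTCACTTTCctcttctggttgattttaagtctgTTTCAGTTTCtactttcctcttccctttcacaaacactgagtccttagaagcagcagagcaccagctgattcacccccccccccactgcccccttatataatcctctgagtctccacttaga
Ifit1: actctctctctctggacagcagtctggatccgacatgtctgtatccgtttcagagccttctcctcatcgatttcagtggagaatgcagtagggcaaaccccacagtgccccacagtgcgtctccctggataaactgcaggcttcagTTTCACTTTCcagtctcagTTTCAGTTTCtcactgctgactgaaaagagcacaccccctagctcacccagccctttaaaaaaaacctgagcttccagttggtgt
Oas3: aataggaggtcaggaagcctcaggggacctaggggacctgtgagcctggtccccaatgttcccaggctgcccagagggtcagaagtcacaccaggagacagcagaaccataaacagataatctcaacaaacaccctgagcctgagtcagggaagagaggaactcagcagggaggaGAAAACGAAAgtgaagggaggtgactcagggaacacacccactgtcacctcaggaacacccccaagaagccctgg
Ifit3 and Ifit1 each hold 2 elements, and Oas3 holds 1, at 65 bases before the start. These 3 genes were also low in combined libraries, with log2 fold changes against WT of -2.61, -2.80 and -1.82.

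Most oxidative phosphorylation genes rose by small amounts. Of 73 nuclear oxidative phosphorylation genes, 53 were called higher and the other 20 were not called, with a median log2 fold change of 0.62 beside 0.51 in vehicle and 0.52 in combined against WT. Of the 41 members above 100 CPM, 32 were called higher, where 46.8% of all genes at that level were. Cycs, the electron carrier cytochrome c, was measured at 95.7, 115 and 93.8 CPM in ruxolitinib libraries and 40.5, 42.5 and 54.2 in WT libraries (1.15 ± 0.19). Of 10 mitochondrially encoded genes, 1 was called higher and the other 9 were not called, with a median of 0.14. The oxidative phosphorylation count was 18 without A16, 30 without B28, 16 without B30 and 34 with upper quartile normalization.

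Glycolysis genes rose as well, with 11 of 19 called higher and 1 lower and a median of 0.64, and 10 of its 12 members above 100 CPM were called higher. Gpi1, the glucose phosphate isomerase, was measured at 689, 662 and 651 CPM against 337, 335 and 360 (0.96 ± 0.11, adjusted p = 0.000328, edgeR). Lactate dehydrogenase Ldha rose by 1.05 ± 0.21 and enolase Eno1 by 0.95 ± 0.15. This list kept 8 to 11 higher calls over the fits that left out 1 library.

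Of 53 ribosome biogenesis and MYC target genes, 33 were called higher and 1 lower, with a median of 0.66, and of the 42 members above 100 CPM 30 were called higher. Of 66 cytoplasmic ribosomal protein genes 29 were called higher and the other 37 were not called, with a median of 0.35. All 29 were among the 59 members above 100 CPM, where 46.8% of all genes were called higher and the median over all genes was 0.43, so this count was near the background at that level. Nucleolin (Ncl), which acts in ribosomal RNA synthesis, was measured at 1594, 2534 and 1852 CPM against 1251, 1115 and 1397, the highest value being that of A16. The higher counts of these 2 lists were 7 and 3 without A16, 16 and 5 without B28, 6 and 3 without B30 and 20 and 5 with upper quartile normalization, and the ribosomal protein count was 6 without A17 and 52 without B31. Of 28 ATF4 and mTORC1 output genes 12 were called higher (6 without A16 or without B30) and 2 lower. Of 20 cholesterol synthesis genes 4 were called higher (20%, near the 16% over all genes) and 1 lower, and the higher count was 0 without A16, without B28 or without B30 and 1 without A17 or with upper quartile normalization.

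Of 40 DNA replication and mitosis genes, 30 were called higher and the other 10 were not called, and the median was 0.81, beside 0.60 in vehicle and 0.58 in combined against WT. Mki67, a marker of cells in cycle, was not among them: it was measured at 301, 289 and 275 CPM against 297, 245 and 267, with a log2 fold change of 0.10 (95% interval -0.22 to 0.41). The count was 18 without A16 and 19 without B30, and 27 of the 33 members above 100 CPM were called higher. Of 14 heat shock and chaperone genes, 6 were called higher and 1 lower, and the higher count was 1 without A16, 2 without B28 or without B30, 4 without A17 and 3 with upper quartile normalization. Hspa5, the chaperone of the endoplasmic reticulum, was measured at 2407, 2385 and 2064 CPM against 705, 629 and 719 (1.74 ± 0.15, adjusted p = 4.6e-05, edgeR), while the stress-induced Hspa1b was measured at 6.11, 2.01 and 1.94 CPM against 20.3, 33.6 and 15.9 (-2.80 ± 0.84), a call lost in 4 of the 6 fits that left out 1 library. Of 12 glucocorticoid-induced genes 6 were called higher and 3 lower (1 without A16 or without B30). Of 26 SR splicing factors and Clk kinases 4 were called higher and 4 lower, 15.4% each and near the shares over all genes, and leaving out 1 library gave 1 to 3 and 1 to 4.

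DNA methylation and Polycomb genes were called about as often as all genes. Of 20, 2 were called higher (10%) and 4 lower (20%), and the lower count was 1 without B30 and 2 without A16 or without B28. Dnmt1, the maintenance methyltransferase, was measured at 945, 1104 and 965 CPM against 579, 433 and 527 (0.97 ± 0.15). The de novo methyltransferase Dnmt3b was measured at 34.9, 24.1 and 39.6 CPM against 68.3, 88.9 and 69.6 (-1.20 ± 0.26), and Dnmt3a at 77.0, 60.5 and 79.3 CPM against 112, 105 and 102 (-0.56 ± 0.16). The groups did not overlap for any of these 3 genes, and the call of Dnmt3a was lost in 3 of the 6 fits that left out 1 library. Mean Dnmt3b was 38.8 CPM in vehicle and 86.7 in combined libraries.

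Myeloid genes were higher in ruxolitinib-treated mutant than in WT LSK cells. Of 18 neutrophil granule markers, 10 were called higher and the other 8 were not called, with a median log2 fold change of 2.13, beside 1.32 in vehicle and 0.72 in combined against WT. Mpo, the myeloperoxidase of primary granules, was measured at 12109, 8113 and 9104 CPM in ruxolitinib libraries and at 2358, 2382 and 2159 in WT libraries (2.09 ± 0.22, adjusted p = 0.0002, edgeR). Elane, neutrophil elastase, was measured at 4187, 2529 and 3170 CPM against 648, 778 and 667 (2.24 ± 0.32). The primary granule and progenitor genes Ctsg (2.06 ± 0.24) and Ms4a3 (2.33 ± 0.26) rose alike. Lcn2, a secondary granule gene of later neutrophils, was measured at 62.6, 15.1 and 16.9 CPM against 1.81, 2.79 and 2.98, with A14 standing above the other ruxolitinib libraries. Cebpe, the factor of terminal granulocyte differentiation, rose by 2.18 ± 0.43. The summed level of the 18 markers was 12687 to 20074 CPM in ruxolitinib and 3593 to 3968 CPM in WT libraries. In bulk RNA of a sorted fraction, more cells of a type and more RNA per cell cannot be told apart.

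Of 23 monocyte and dendritic cell markers, 7 were called higher and 3 lower (1 without A16 or B30). The chemokine receptor Ccr2, which marks monocytes and their progenitors, was measured at 361, 247 and 288 CPM against 37.1, 30.4 and 31.99 (3.17 ± 0.36), and it was also called in combined against WT, with 3.18. F13a1 (2.42 ± 0.34), Cd14 (2.90 ± 0.42) and the M-CSF receptor Csf1r (1.88 ± 0.39) rose. Flt3, the receptor of lymphoid-primed progenitors and dendritic cells, was measured at 185, 59.6 and 243 CPM against 517, 599 and 595 (-1.81 ± 0.58, adjusted p = 0.0357, edgeR), with no overlap, and its call was lost in 5 of the 6 fits that left out 1 library. Of 16 mast cell and basophil markers, 7 were called higher and the other 9 were not called, with a median of 1.36 beside 2.18 in vehicle and 1.42 in combined against WT. Carboxypeptidase Cpa3 was measured at 124, 185 and 145 CPM against 49.2, 30.4 and 48.2 (1.83 ± 0.25), and the IgE receptor chain Fcer1a at 33.6, 29.0 and 23.3 CPM against 4.92, 3.33 and 3.98 (2.81 ± 0.39).

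Of 15 erythroid markers tested, 12 were called higher and the other 3 were not called, with a median of 1.81, beside 1.33 in vehicle and 0.54 in combined against WT. The beta globin Hbb-bs was measured at 55.3, 611 and 53.1 CPM in ruxolitinib libraries and at 5.10, 12.8 and 17.3 in WT libraries (4.35 ± 0.76), and the alpha globin Hba-a2 at 5.36, 54.3 and 5.22 CPM against 0.434, 1.04 and 1.37 (4.50 ± 0.83). A16 held the high value in both, and without A16 the log2 fold changes were the lowest of the 6 fits, 2.19 and 2.45. Both globins have near-identical copies, between which reads can be split. The carbonic anhydrase Car1 was measured at 724, 2415 and 721 CPM against 201, 254 and 300 (2.35 ± 0.47), and the transferrin receptor Tfrc at 235, 592 and 248 CPM against 110, 114 and 106 (1.70 ± 0.34). Without A16, without B28 and without B30, 6, 7 and 6 erythroid markers were called higher.

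Megakaryocyte markers leaned higher: of 18 tested, 14 had a positive log2 fold change, and the median was 0.69. Of the 18, 7 were called higher (38.9%), with 4 without A16 and 3 without B30. The 2 called lower (0 or 1 without any single library) were 11.1%, below the 16.1% over all genes. The integrin Itga2b (CD41) was measured at 440, 464 and 454 CPM against 182, 137 and 151 (1.53 ± 0.27), and P-selectin (Selp) at 166, 132 and 137 CPM against 37.0, 32.6 and 41.3 (1.97 ± 0.22, adjusted p = 0.000261, edgeR). The erythropoietin receptor Epor was measured at 29.9, 75.4 and 33.3 CPM against 15.4, 15.2 and 15.5 (1.59 ± 0.46), a call lost without A16, B28, B30 or B31. Of 23 cytokine receptor genes, 5 were called higher and 2 lower, but over the fits that left out 1 library, whichever it was, 2 to 3 were called higher and 0 to 1 lower. The interferon-gamma receptor chain Ifngr1 was measured at 447, 500 and 405 CPM against 250, 219 and 206 (1.003 ± 0.15).

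Stem cell identity genes were called about as often as all genes. Of 30, 6 were called lower (20%) and 4 higher (13.3%). The lower count was 3 without B30, and the higher count was 1 without B30 and 2 without A16 or B31. The median was -0.38, beside -0.33 in vehicle and -0.25 in combined against WT. Hlf, a transcription factor of long-term stem cells, was measured at 47.6, 52.7 and 74.6 CPM in ruxolitinib libraries and at 318, 295 and 219 in WT libraries (-2.25 ± 0.41, adjusted p = 0.00397, edgeR). Lmo2, a scaffold of stem cell transcription complexes, was measured at 277, 115 and 262 CPM against 609, 694 and 481 (-1.45 ± 0.35), and Prdm16 at 14.6, 11.6 and 10.9 CPM against 37.5, 27.2 and 32.2 (-1.39 ± 0.32). Ndn, an imprinted gene of quiescent stem cells, was measured at 0.705, 1.07 and 0.186 CPM against 18.9, 14.02 and 12.1 (-4.53 ± 0.90). The groups did not overlap for any of these 4 genes, and the call of Lmo2 was lost without B30. Procr (EPCR), a surface marker of stem cells, was measured at 16.5, 15.7 and 20.3 CPM against 43.0, 38.2 and 47.2 but did not pass the test (-1.29 ± 0.48, adjusted p = 0.0565, edgeR). Gfi1b, shared by stem cells and the erythroid and megakaryocyte lineages, rose by 1.25 ± 0.29, with the highest value in A16 (245 CPM, against 104 and 112), and lost its call without A16 or without B30.

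**Figure D5:**
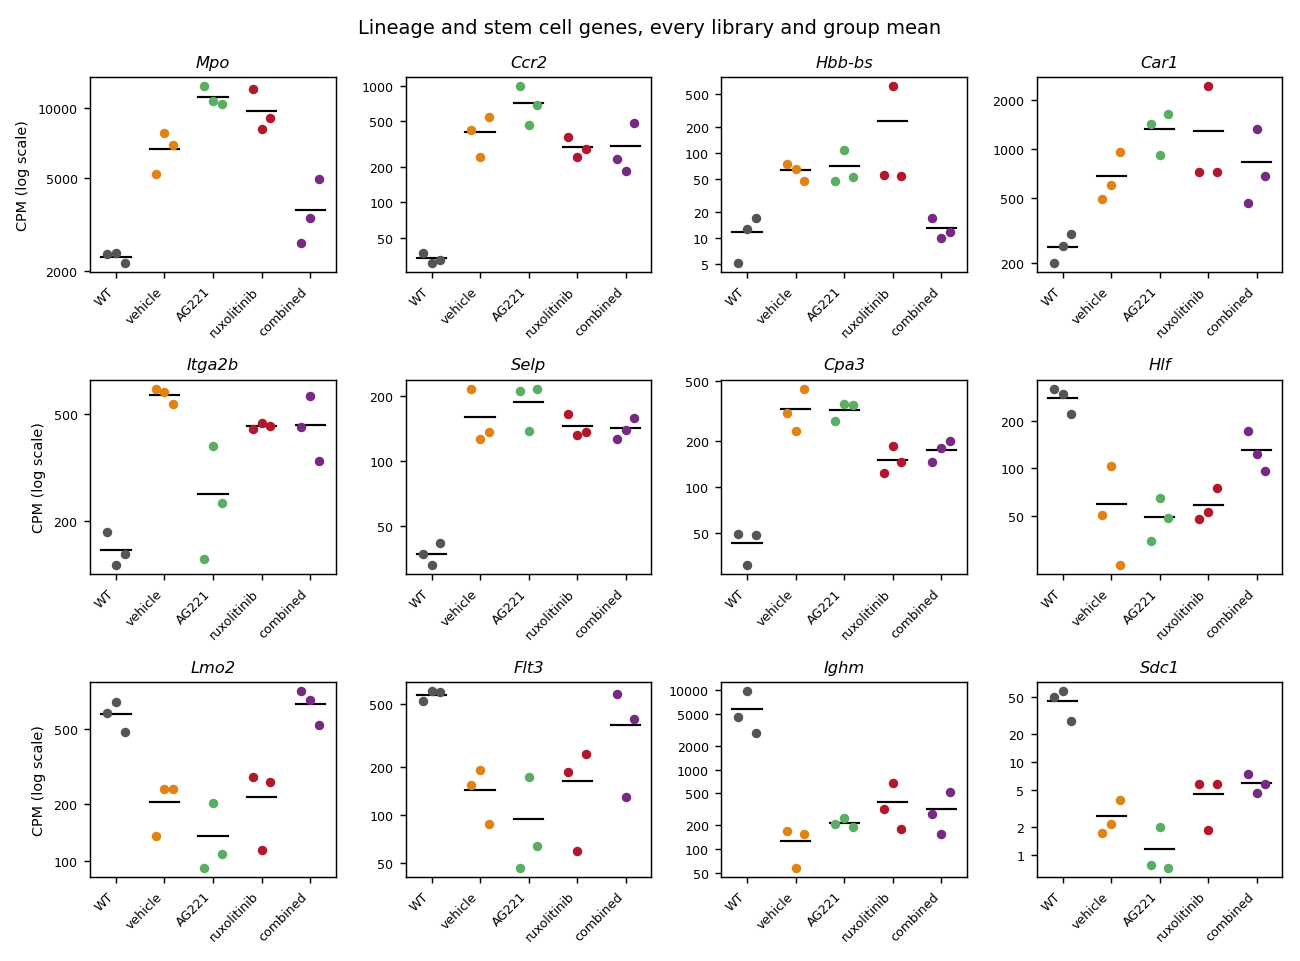
CPM (log scale) of 12 lineage, receptor and stem cell genes in every library of the 5 groups, with bars at the group means. Ruxolitinib libraries lie above WT for Mpo, Ccr2, Hbb-bs, Car1, Itga2b, Selp and Cpa3 and below WT for Hlf, Lmo2, Flt3, Ighm and Sdc1, with A16 high for both erythroid genes.

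Plasma cell genes were lower, in WT libraries that differed among themselves. Of 14 plasma cell markers, 10 were called lower (6 without A16 and 4 without B30) and 1 higher, with a median of -2.18. Of 15 B-lineage markers 4 were called lower (26.7%) and the other 11 were not called. The median level of these 15 was 1.93 CPM, and 23.5% of all genes at 1 to 10 CPM were called lower, so this count was near the background. Their median log2 fold change was -1.76, beside -0.45 over all genes at that level. The immunoglobulin heavy chain Ighm was measured at 322, 675 and 176 CPM in ruxolitinib libraries and at 4615, 9750 and 2932 in WT libraries (-3.88 ± 0.56). Sdc1, the plasma cell marker CD138, was measured at 5.82, 1.84 and 5.74 CPM against 50.1, 57.3 and 27.7 (-3.33 ± 0.47), and the plasma cell factor Irf4 at 0.752, 0.942 and 0.633 CPM against 7.09, 23.4 and 4.85 (-3.92 ± 0.59). Pou2af1 fell by 3.73 and the B cell adaptor Blnk by 2.73 on the log2 scale. Jchain, which joins IgM and IgA, was measured at 66.5, 46.0 and 2.01 CPM against 475, 933 and 421, a call for lower that was lost without A16 or without B30. The plasma cell markers summed to 7538, 17507 and 5472 CPM in WT libraries B28, B30 and B31 and to 582 to 1224 CPM in ruxolitinib libraries. Of 104 immunoglobulin and T cell receptor genes tested, 53 were called lower and 1 higher. The medians of the plasma cell markers were -3.10 in vehicle and -2.49 in combined against WT. Plasma cell RNA in the WT libraries moved with every comparison against WT, and its part in the other lists was not tested. A fit without immunoglobulin and T cell receptor genes called 5482 genes. It only dropped those genes and left other plasma cell RNA in the counts, so it cannot decide this. Of 19 T and NK cell markers, 2 were called higher (10.5%) and the other 17 were not called. Their median was -0.59, and 4 of the 19 had a log2 fold change above 0. Of 9 stromal and endothelial markers 2 were called higher and 1 lower (0 to 1 and 0 to 3 over left-out libraries).

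The remaining genes with the smallest adjusted p came from several classes. Among those higher, Cap1, an actin regulator, was measured at 228, 193 and 216 CPM against 66.7, 56.0 and 71.6 (1.71 ± 0.15), the histone gene Hist3h2a at 41.2, 39.8 and 47.6 CPM against 8.40, 6.22 and 6.89 (2.58 ± 0.23) and the pseudogene Tdpx-ps1 at 6.06, 11.0 and 7.41 CPM against 0.362, 0.975 and 0.569. Reads of a pseudogene can belong to its parent gene. Among those lower, several were at or near 0 in ruxolitinib libraries and present in WT. Gas6, a ligand of the TAM receptor kinases, was measured at 0.329, 0.385 and 0.745 CPM against 18.2, 29.0 and 10.7 (-5.28 ± 0.62), and the progesterone receptor Pgr at 0.799, 0.514 and 1.49 CPM against 15.9, 22.7 and 11.2 (-4.13 ± 0.60). The BMP receptor Bmpr1a was measured at 0.141, 0.128 and 0.0373 CPM against 3.22, 4.81 and 2.41, and Rtn1 at 0, 0.0428 and 0 CPM against 1.19, 0.807 and 0.602. For each of these genes every ruxolitinib library was below every WT library. B30 held the highest WT value for Gas6, Pgr and Bmpr1a, and B28 for Rtn1.

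The extracellular matrix gene Fbln1 fell by 3.60, the focal adhesion gene Tns2 by 3.77, the receptor kinase Ephb2 by 2.72, Obsl1 by 4.84, Cdcp1 by 4.55, Shisa8 by 4.52 and Fam171a1 by 2.32 on the log2 scale. At higher levels, Crebzf, a bZIP cofactor, was measured at 5.54, 3.85 and 4.51 CPM against 19.4, 23.5 and 19.1 (-2.16 ± 0.25), and Fam208a, a subunit of the HUSH silencing complex, at 29.7, 22.3 and 28.5 CPM against 79.0, 96.5 and 61.5 (-1.56 ± 0.19). Mean Crebzf was 6.74 CPM in vehicle and 30.6 in combined libraries, and mean Tns2 was 1.005 and 0.714, so among these lower genes some were near WT in combined libraries and others were not. In ruxolitinib against combined, 2166 genes were called (12.6%), 672 higher and 1494 lower. Several named genes overlap a gene on the opposite strand over part of their exons, such as Csf1r (15.1% of exonic bases), Mpo (15.0%), Selp (14.1%) and Fam208a (12.9%), and it is not stated whether the counting used strand.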

How the data were processed

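CD45.2+ LSK cells were profiled by RNA-seq of SMARTer-amplified total RNA. The authors deposited raw counts of reads per Ensembl gene, made with STAR 2.5.1a on mm10 (GRCm38); the Ensembl release and the strand setting are not given in the sources used here. Their table of DESeq2 1.6.3 normalized counts was not used. Symbols and coordinates came from GENCODE M21, which matched 44585 of 45232 IDs. Genes were kept by filterByExpr, and genes on X, Y or no chromosome were dropped. All 15 libraries (5 groups) entered 1 quasi-likelihood fit with TMM factors (edgeR 4.0.16, R 4.3.3), without covariates, with a common biological coefficient of variation of 0.313. CPM values are TMM-adjusted, and ± is the SE of the log2 fold change. Total counts were 22004150 to 27743702 in the 6 libraries compared, where 3 counts correspond to 0.100 to 0.141 CPM. No 2 replicates agreed within counting noise. The genes named are members of the lists, the 12 per direction with the smallest adjusted p and no overlap, the 6 per direction with the largest fold changes at 10 CPM or more, and Jak2 and Idh2, leaving out clone-named and immunoglobulin genes; Tcrg-C1, Kit and Ly6a are named beside their results. Members and lists were chosen with earlier results of these data known. Alternatives were DESeq2 1.42.0, other scalings, filters, thresholds and left-out libraries. The script was tested on simulated data.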

Additional observations from a re-analysis of the deposited data

Results flagged for a closer look

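Y-linked genes, which the comparison left out, were read in the ruxolitinib libraries and were at or near 0 in WT. Ddx3y averaged 163 CPM (SD 28.9, n = 3) against 0.0335, Uty 95.9 CPM against 0.0112, Kdm5d 54.8 CPM against 0.0224 and Eif2s3y 85.0 CPM against 0.0112. Xist, the RNA of the inactive X chromosome, averaged 11.0 CPM (SD 8.67) in ruxolitinib and 480 CPM (SD 28.1) in WT libraries. All 3 ruxolitinib libraries were on one side and all 3 WT libraries on the other for each of these genes. With genes on X and Y kept, 5729 genes were called. The part of donor sex in the autosomal differences cannot be told apart from that of the group.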

How the results depend on the processing

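The number of genes called in ruxolitinib against WT was 5498. It was 25 at an adjusted p under 0.0001 and 1789 to 4858 when 1 library was left out, with the lowest count without WT B30, and 2811 with an added limit of 2-fold. Other tools, scalings and filters gave 4007 to 6522. In ruxolitinib against vehicle, where 3 genes were called, DESeq2 called 50, no filter beyond 1 count gave 18, a minimum of 10 counts in every library 5, and the fit of the compared groups alone and the adjusted p under 0.0001 both 0, with 0 to 9 over left-out libraries. In ruxolitinib against combined, 1121 to 1868 genes were called over left-out libraries and 3 at an adjusted p under 0.0001, against 2166. Over all list genes, where 344 were called, the counts were 10 at that threshold, 154 with the 2-fold limit and 154 to 334 over left-out libraries. Uncalled genes changed sign in 7 fits: Mki67 was -0.011 with at least 10 counts in every library, Kit 0.053 with GC offsets, 0.035 with GC offsets and without A16 (an alternative chosen after seeing the data) and -0.19 to 0.030 over left-out libraries, and Idh2 0.27 with GC offsets and without A16 and -0.52 to 0.16 over left-out libraries. Over all pairs of a named gene and an alternative, direction and call held in 1849, the call was lost in 174 and it was gained in 6. The cause of these changes was not tested. Genes under 1 CPM rest on few counts. Intervals cover only counting error and the spread within groups, estimated together over all 15 libraries of the 5 groups. No paired analysis was possible because ruxolitinib and WT libraries share no replicate number.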
